A study of Mus musculus with 11 samples.

Results

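The cytochrome P450 genes of mouse liver are described here across 11 liver libraries. The members are the rows of the deposited gene table whose symbol is Cyp followed by a family number, subfamily letters and a gene number, with 1 or more reads over all libraries: 93 of 43346 genes. Pseudogene symbols are out, as are Cyp51, Cyp4a12a, Cyp4a12b, Cyp3a41a and Cyp3a41b, whose symbols do not have that form. Cyp24a1, the vitamin D 24-hydroxylase, has the form but had 0 reads in every library and is not a member. All livers came from FVB/NJ mice that carried hepatocellular carcinoma induced with MET, the hepatocyte growth factor receptor, expressed together with β-catenin, through which Wnt signals act, in a model the submitters call synthetic transgenic. The treatment label of all 11 is anti-PD-1, which blocks a checkpoint receptor on T cells. Their response labels give 6 responders, 4 non-responders and 1 library with no treatment, called the untreated library here after that label. The sources used here give no age, sex, time after treatment or part of the liver sampled. They do not say whether each library is a different mouse, so a p-value here reflects only how these libraries vary, which may be technical. Libraries are numbered within each group in accession order, which pairs nothing.

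Cytochromes P450 are haem enzymes of the endoplasmic reticulum and mitochondria that insert an oxygen atom into their substrates with electrons from a reductase or a ferredoxin. In liver, families CYP1 to CYP3 oxidise drugs, toxins and steroids, CYP4 enzymes hydroxylate the ends of fatty acids and eicosanoids, and CYP7, CYP8, CYP27 and CYP39 enzymes turn cholesterol into bile acids. Many are made mainly by perivenous hepatocytes, where Wnt and β-catenin signalling is high, many are induced through the receptors AHR, CAR, PXR and PPARα, and a set in mouse liver differs between males and females under the pulse pattern of growth hormone. RNA from whole tissue was measured, so fewer hepatocytes of a kind and less RNA per cell cannot be told apart.

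Libraries held 17876515 to 40565708 gene counts in responders, 25542066 to 39941835 in non-responders and 49884800 in the untreated library. Reads of non-responder 1 lay toward the 3′ ends of genes: the log2 ratio of read density in late against early exons, as a median of 7049 genes, was 1.08 there and between -0.19 and 0.02 in the other 10 libraries. Levels per library are given as CPM, the gene's reads scaled to a common library size. The 9 listed hepatocyte genes summed to 76454 to 90147 CPM in responders and 103230.0 to 122487 in non-responders, with Ass1 higher and Apoa1 lower in responders and 7 not passing. The sum and the single genes differ in direction: Alb (-0.60) and Apoa1 (-1.11) had log2 fold changes below 0, the other 7 were above 0, and the median over the 9 was 0.81. Of 6 T cell markers 1 was lower in responders (Trac), and of 4 erythroid markers 2 (Hbb-bt and Slc4a1), with list medians of -0.40 and -1.21. Of 5 endothelial markers Lyve1 was lower and 4 did not pass, among them Stab2, Kdr and Clec4g with log2 fold changes of 0.29, 0.62 and 0.61, and the list median was 0.29. The Y-linked genes Ddx3y, Eif2s3y, Kdm5d and Uty were read in every library (Ddx3y at 22.2 CPM or more), and Xist stood at no more than 2.46 CPM. Of 6 fetal and tumour hepatocyte genes, 2 were lower in responders (Igf2 and Bex1) and 4 did not pass; their summed level was 2.46, 2.23, 3.45 and 3.12 CPM in responders 1, 2, 3 and 5, 214 and 240.3 in responders 4 and 6, 303 to 863 in non-responders, and 3.41 in the untreated library. Dlk1 of that list had no read in those 4 responders or in the untreated library.

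P450 genes changed in both directions between the response labels. Of the 93 members 76 had enough reads to be tested, and edgeR's quasi-likelihood test called 9 of them higher and 7 lower in responders at an adjusted p under 0.05, while 60 did not pass. Every adjusted p given here is from that test unless another is named. Over all 17610 genes tested, 4.11% were higher and 5.82% lower (9.93% in either direction), against 11.8% and 9.21% of the tested members (21.1% in either direction). The median log2 fold change of the tested members was 0.34, and that of all genes tested was -0.02; 49 tested members had a value above 0 and 27 below. Responders and non-responders did not overlap in 13 members that were higher and 7 that were lower in responders, where 5.70% and 5.62% of all genes tested did not overlap. These counts rest on single libraries, as do those over all genes tested. Leaving out non-responder 2 gave 1 higher and 2 lower member, beside 38 higher and 41 lower of the 17894 genes tested then. Leaving out responders 1, 2 and 5 in turn gave 2 higher with 6, 6 and 5 lower. Over all genes, those fits gave 171, 142 and 130 higher and 254, 182 and 179 lower. When the sample titles' running number entered the fit, 0 members passed in edgeR's test, and all 16 kept their sign. An unadjusted edgeR p under 0.05 was found there for 14 of the 76 members, 7 of them higher, beside 1857 of all 17610 genes. Over all genes, that fit called 0 higher and 1 lower. The title numbers are 1, 3, 9, 13, 16 and 29 for responders and 26, 30, 32 and 37 for non-responders, so they order the groups almost fully.

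Taken as a share of all gene counts, the members made up between 1.80% and 2.19% in responders (median 2.003%) and 0.811%, 0.800%, 1.68% and 1.77% in non-responders 1 to 4. The groups did not overlap, but the distance was short for non-responders 3 and 4 and long for non-responders 1 and 2. The untreated library stood at 2.12%, within the range of the responders. Cyp2e1, which oxidises ethanol and small solvents, supplied the most reads of any member, between 29.1% and 44.8% of P450 reads in a library. By the authors' RPKM, which divides by gene length, it also had the highest median over the treated libraries (2451 RPKM), followed by Cyp3a11 (731 RPKM), Cyp2f2 (236 RPKM) and Cyp2d9 (227 RPKM).

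**Figure D1:**
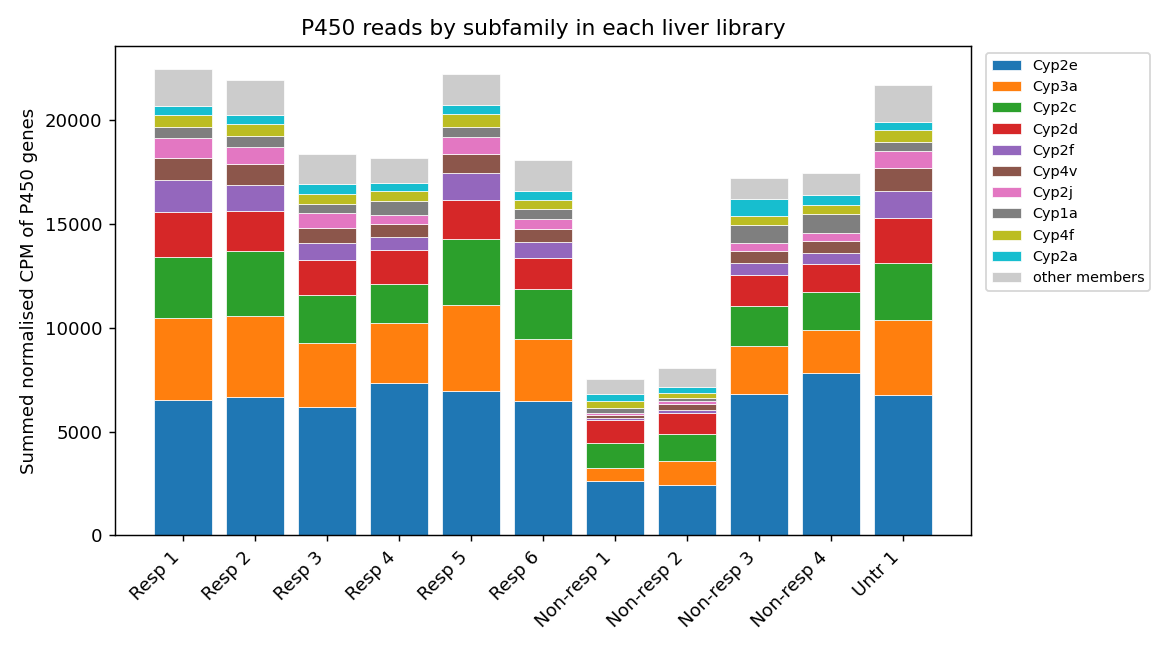
Summed normalised CPM of the P450 members in each of the 11 liver libraries (6 responders, 4 non-responders and the untreated library), stacked by subfamily, with the remaining subfamilies in grey. Non-responders 1 and 2 have the lowest stacks, with Cyp2e at 2635 and 2409.9 CPM, against 6806 and 7808 in non-responders 3 and 4.

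The 16 called members span log2 fold changes from -4.56 (Cyp17a1) to 2.11 (Cyp2c29). The 9 higher in responders were Cyp2c29, Cyp2j5, Cyp2c54, Cyp46a1, Cyp2c50, Cyp4a32, Cyp2a12, Cyp26a1 and Cyp27a1, and the 7 lower were Cyp17a1, Cyp2s1, Cyp2c69, Cyp2a4, Cyp3a16, Cyp4f16 and Cyp2c39. In edgeR fits that left out 1 treated library each, Cyp4a32, Cyp2s1 and Cyp2c69 passed in all 10 (adjusted p at most 0.0492). Without non-responder 2 the other 13 missed the threshold, with adjusted p from 0.0568 for Cyp2a4 to 0.126 for Cyp2a12. Cyp2c54, Cyp2a4, Cyp4f16 and Cyp2c39 missed it in that fit only, and Cyp17a1 also without responder 5. The remaining calls held less often. Cyp2c29, Cyp27a1 and Cyp3a16 passed in 6 of the 10 fits, Cyp2c50 in 5, Cyp2j5 and Cyp46a1 in 4, Cyp26a1 in 3 and Cyp2a12 in 2.

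**Figure D2:**
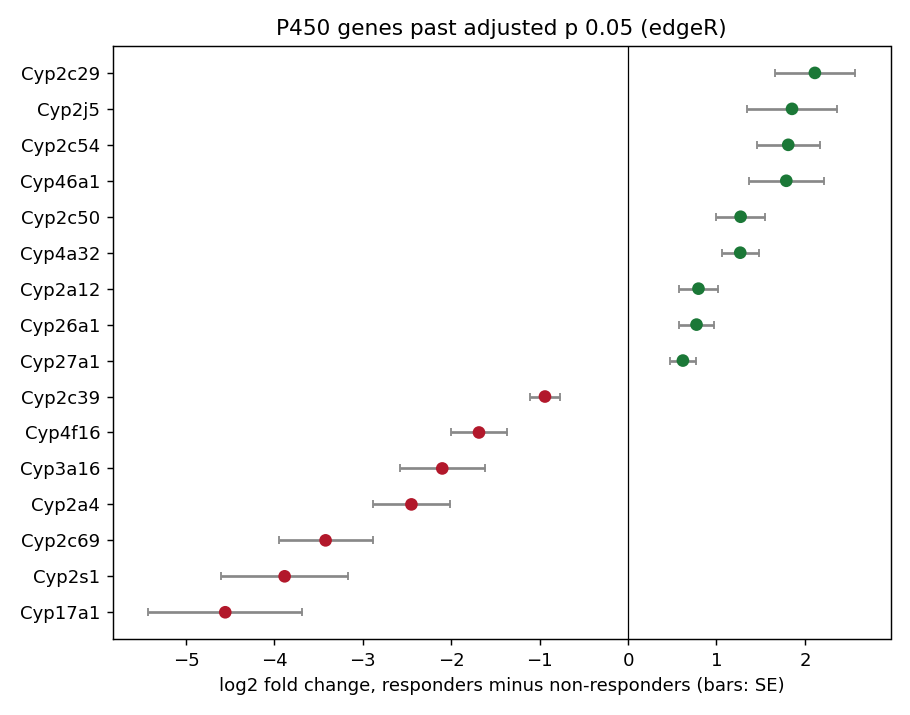
Log2 fold change (responders minus non-responders, x axis) with its SE for each of the 16 P450 genes past an adjusted p of 0.05 in edgeR's test. Decreases reach -4.56 for Cyp17a1 and increases 2.11 for Cyp2c29.

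Among the enzymes that degrade cholesterol, the first enzyme of the acidic bile acid pathway rose, and 3 others had log2 fold changes above 0 without passing. Of 7 members of the bile acid and cholesterol list, 2 were higher, 0 were lower and 5 did not pass, with a median log2 fold change of 1.28. Cyp27a1, the mitochondrial sterol 27-hydroxylase (mm10 chromosome 1, 74713574 to 74737892), lay between 317 and 499 CPM in responders (median 400.5), and at 267, 228, 270.3 and 282 CPM in non-responders 1 to 4. Every responder stood above every non-responder, and the log2 fold change was 0.62 ± 0.15 (SE, adjusted p = 0.0298). Cyp46a1, cholesterol 24-hydroxylase, best known from neurons, was between 3.48 and 11.3 CPM in responders (median 6.23) and 2.29, 0.814, 3.52 and 1.43 CPM in non-responders 1 to 4. Its ranges overlapped only through responder 4 and non-responder 3, and its log2 fold change was 1.79 ± 0.43 (SE, adjusted p = 0.0289).

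Cyp7a1, the rate-limiting enzyme of bile acid synthesis, lay between 65.9 and 321 CPM in responders (median 168) and at 28.4, 54.8, 122 and 87.9 CPM in non-responders 1 to 4. Responder 5 was within the range of the non-responders, and the log2 fold change of 1.28 ± 0.47 (SE, adjusted p = 0.103) did not pass. Cyp8b1, the sterol 12α-hydroxylase that sets the share of cholic acid, stood at 399, 389.8, 293, 99.6, 159 and 133 CPM in responders 1 to 6 and at 16.5, 71.2, 109 and 97.5 CPM in non-responders 1 to 4. Its log2 fold change was 1.74 ± 0.55 (SE, adjusted p = 0.0701); responders 1 to 3 were the high ones. Cyp7b1, the oxysterol 7α-hydroxylase, had a log2 fold change of 1.37 ± 0.53 (SE, adjusted p = 0.125) and did not pass. It was lowest in non-responders 1 and 2, at 22.7 and 73.4 CPM, and stood at 291 in non-responder 4, inside the responders' range. Cyp2c70, which makes the muricholic acids of mice, had 489.5 ± 116 CPM (responders, SD, n = 6) against 601 ± 28.9 (non-responders, SD, n = 4), and its log2 fold change of -0.30 ± 0.18 (SE, adjusted p = 0.314) did not pass. Responders 3, 4 and 5 were below every non-responder.

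Cyp39a1, a second oxysterol 7α-hydroxylase, went the other way without passing. It stood at 10.4, 4.56, 9.98, 39.2, 13.4 and 30.99 CPM in responders 1 to 6 and at 58.1, 208, 32.2 and 54.2 CPM in non-responders 1 to 4. Responders 4 and 6 were the highest of their group, above 32.2 CPM of non-responder 3 in the case of responder 4, and the log2 fold change was -2.30 ± 0.65 (SE, adjusted p = 0.0509). Nr1h4, which encodes the bile acid receptor FXR, was higher in responders (log2 fold change 0.42 ± 0.11 SE, adjusted p = 0.0392).

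**Figure D3:**
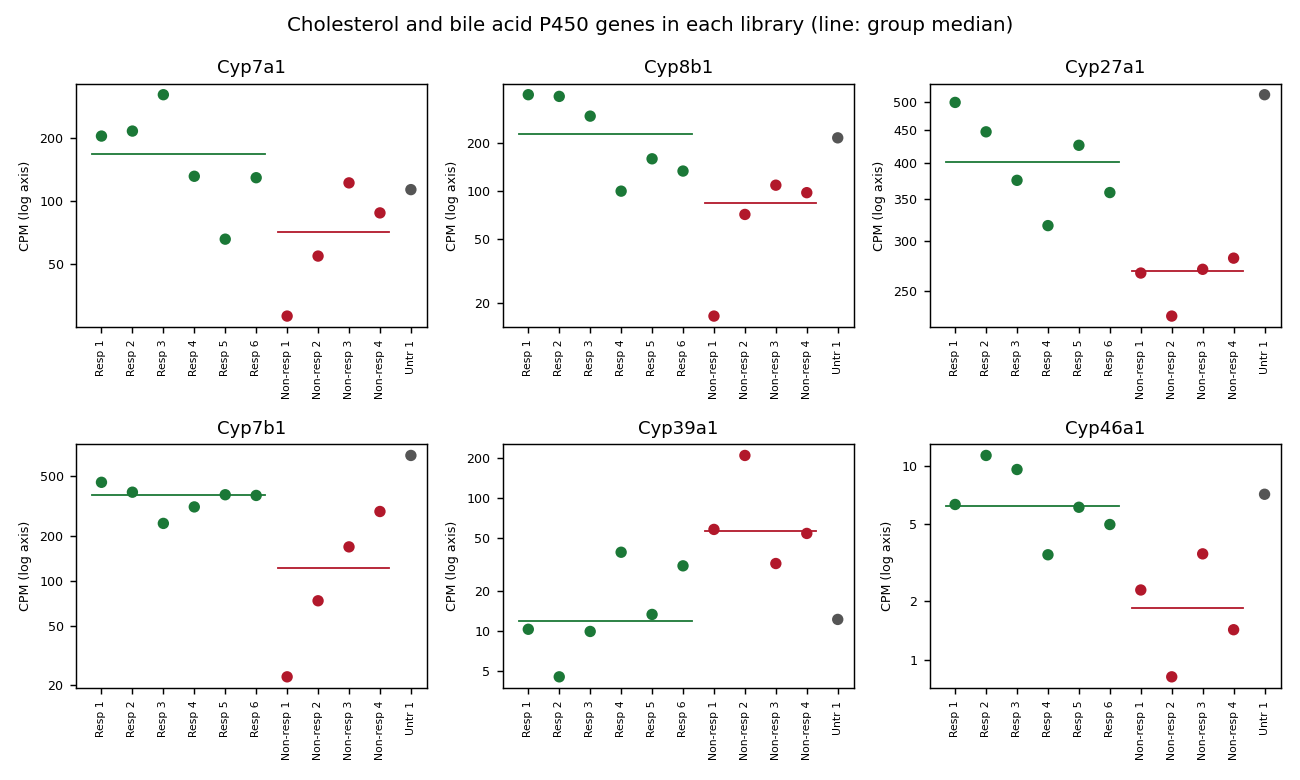
CPM on a log axis of 6 cholesterol and bile acid P450 genes in each library (green points: responders, red: non-responders, grey: untreated, lines: group medians). The groups do not overlap for Cyp27a1, and non-responder 1 is the lowest library for Cyp7a1 and Cyp8b1, at 28.4 and 16.5 CPM.

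All 3 CYP26 enzymes, which clear retinoic acid from cells, had log2 fold changes above 0, and 1 passed. Cyp2c39, a Cyp2c enzyme that also hydroxylates retinoic acid, was lower in responders. Cyp26a1, the hepatic form, lay between 22.8 and 44.8 CPM in responders (median 39.04) and at 23.3, 19.9, 21.7 and 18.9 CPM in non-responders 1 to 4, with a log2 fold change of 0.77 ± 0.20 (SE, adjusted p = 0.0350). Only responder 6, at 22.8 CPM, fell below the highest non-responder. Cyp26b1, the main form of many other tissues, was spread more widely, at 4.64, 15.1, 9.33, 20.9, 37.7 and 2.93 CPM in responders 1 to 6 and 1.53, 4.42, 4.88 and 4.65 CPM in non-responders 1 to 4, and its log2 fold change of 1.95 ± 0.68 (SE, adjusted p = 0.0936) did not pass. Cyp26c1 had a log2 fold change of 0.90 ± 0.32 (SE, adjusted p = 0.0957) at 2.19 ± 0.572 CPM (responders, SD, n = 6) against 1.17 ± 0.583 (non-responders, SD, n = 4).

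Of the steroid hormone enzymes, Cyp17a1 was lower in responders and had the largest fold change of all members tested. Cyp17a1, the 17α-hydroxylase and lyase of androgen synthesis (mm10 chromosome 19, 46667165 to 46672974), stood at 0.403, 0.574, 0.405, 0.963, 0.596 and 0.447 CPM in responders 1 to 6 and at 27.1, 21.7, 1.98 and 0.751 CPM in non-responders 1 to 4. Non-responders 1 and 2 were the high libraries, non-responder 4 lay below responder 4, and the log2 fold change was -4.56 ± 0.87 (SE, adjusted p = 0.0187). It did not pass by limma-voom (adjusted p = 0.119). Reads of both high libraries fell on all 8 exons of the gene. Of 5 markers of adrenal and gonadal steroid cells, 2 were tested, with Hsd3b1 lower in responders (log2 fold change -3.65 ± 0.80 SE, adjusted p = 0.0235) and Star not passing (-0.12). The summed level of that list was 1.71 to 3.21 CPM in responders and 3.57 to 7.08 in non-responders, and its part in the result was not tested. Cyp11a1, Cyp11b1, Cyp11b2 and Cyp19a1 were too scarce to test. Cyp21a1, the steroid 21-hydroxylase, had a log2 fold change of 0.76 ± 0.31 (SE, adjusted p = 0.144) and shares 23.7% of its 50-base words with its pseudogene. Cyp2r1, the vitamin D 25-hydroxylase, stood at 17.3 ± 3.92 CPM (responders, SD, n = 6) against 9.56 ± 3.71 (non-responders, SD, n = 4), and its log2 fold change of 0.85 ± 0.27 (SE, adjusted p = 0.0707) did not pass.

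The CYP1 enzymes of aryl hydrocarbon metabolism and Cyp2e1 did not pass, and their non-responders fell far apart. Cyp1a2, a perivenous enzyme that oxidises caffeine and aromatic amines, lay between 449 and 708 CPM in responders (median 515) and at 260.4, 129, 868 and 912 CPM in non-responders 1 to 4. Non-responders 1 and 2 were below every responder and non-responders 3 and 4 above every responder, so that the log2 fold change was -0.02 ± 0.44 (SE, adjusted p = 0.986) and turned to 0.42 by limma-voom. Cyp2e1 had the same order for its low libraries, between 6180.2 and 7334 CPM in responders (median 6595) and 2635, 2409.9, 6806 and 7808 CPM in non-responders 1 to 4, with a log2 fold change of 0.44 ± 0.32 (SE, adjusted p = 0.402). Cyp1a1, the AHR target induced by dioxins, had 1.95 ± 0.349 CPM (responders, SD, n = 6) against 2.78 ± 1.31 (non-responders, SD, n = 4), and its log2 fold change of -0.52 ± 0.29 (SE, adjusted p = 0.273) did not pass. Cyp1b1, a mostly extrahepatic form, did not pass (-1.14 ± 0.41 SE, adjusted p = 0.0966). Of the 10 listed perivenous members, 4 were higher (Cyp27a1, Cyp2c29, Cyp2c50 and Cyp2c54), 0 were lower and 6 did not pass, with a median log2 fold change of 0.95. Of the 2 listed periportal members, Cyp17a1 was lower (log2 fold change -4.56) and Cyp2f2 did not pass. Cyp2f2, the periportal enzyme that activates naphthalene, lay between 609 and 1509 CPM in responders (median 1059) and at 91.7, 127, 607 and 565 CPM in non-responders 1 to 4. The groups did not overlap, yet its log2 fold change of 1.61 ± 0.53 (SE, adjusted p = 0.0776) did not pass.

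The Cyp2c enzymes, which oxidise drugs, steroids and arachidonic acid, lie on chromosome 19, all but Cyp2c44 in 1 cluster, and changed in opposite directions. Of 13 tested members of the subfamily, 3 were higher and 2 lower in responders, and 6 had values above 0 against 7 below. Cyp2c29, second to Cyp2c70 among them by median RPKM (190.3 against 195), lay between 809.9 and 1566 CPM in responders (median 1131) and at 87.6, 128, 456 and 399.7 CPM in non-responders 1 to 4. Every responder exceeded every non-responder, and the log2 fold change was 2.11 ± 0.46 (SE, adjusted p = 0.0225). Cyp2c54 and Cyp2c50 lie beside each other and rose together. Cyp2c54 lay between 27.8 and 119.8 CPM in responders (median 78.8) and at 15.5, 19.8, 33.2 and 19.3 CPM in non-responders 1 to 4, with a log2 fold change of 1.81 ± 0.36 (SE, adjusted p = 0.0189), and Cyp2c50 had a log2 fold change of 1.27 ± 0.28 (SE, adjusted p = 0.0232). Responder 4 overlapped the non-responders in both. Transcripts of these neighbours are 94.98% identical, and 17.5% of the 50-base words of Cyp2c54 also occur in Cyp2c50, so reads can be split between them. Cyp2c44, an arachidonic acid epoxygenase which lies outside the cluster on the same chromosome, did not overlap between groups, at 425 ± 79.9 CPM (responders, SD, n = 6) against 188 ± 111 (non-responders, SD, n = 4), and just missed the threshold with a log2 fold change of 1.17 ± 0.35 (SE, adjusted p = 0.0524).

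Cyp2c39 and Cyp2c69 were lower in responders. Cyp2c39 lay between 52.3 and 96.7 CPM in responders (median 89.4) and at 167, 189.7, 149 and 132 CPM in non-responders 1 to 4, without overlap, with a log2 fold change of -0.94 ± 0.17 (SE, adjusted p = 0.0165). Its transcript is 88.3% identical to that of Cyp2c29, which changed in the opposite direction. Cyp2c69, a female-predominant form, lay between 1.499 and 2.82 CPM in responders (median 2.12) and at 53.2, 23.01, 7.34 and 6.96 CPM in non-responders 1 to 4, also without overlap, with a log2 fold change of -3.42 ± 0.53 (SE, adjusted p = 0.0149). Its level in non-responder 1 is uncertain, since 84.6% of its exon reads there, and 63.3% in non-responder 2, fell on a single exon, and 54.8% of its 50-base words occur in other genes, most of them in Cyp2c40. Cyp2c40 itself did not pass (-0.47 ± 0.22 SE, adjusted p = 0.191). Summed over the subfamily, the level was 2649 ± 521 CPM (responders, SD, n = 6) against 1565 ± 371 (non-responders, SD, n = 4). The groups overlapped, with responder 4 at 1919 CPM and non-responder 3 at 1944. Splitting of reads between members does not change such a sum. Reads dropped or counted more than once would change it, and the counter used is not given.

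In the Cyp3a subfamily of chromosome 5, which forms 1 cluster but for Cyp3a13, 1 gene was lower and the others did not pass. Among 7 tested Cyp3a genes, which encode the main steroid and drug hydroxylases, 1 was lower, 0 were higher and 6 did not pass. Cyp3a11, the most abundant of them and a PXR target, lay between 2478 and 3605 CPM in responders (median 3011) and at 321, 655, 1848 and 1684 CPM in non-responders 1 to 4. No responder overlapped a non-responder, and its log2 fold change of 1.41 ± 0.42 (SE, adjusted p = 0.0519) narrowly missed the threshold. Cyp3a16, a form of the perinatal liver that also persists in females, stood at 41.04, 40.6, 16.7, 26.01, 17.8 and 60.8 CPM in responders 1 to 6 and at 98.9, 318, 84.7 and 76.6 CPM in non-responders 1 to 4. Here every non-responder was above every responder, with non-responder 2 the highest by far, and the log2 fold change was -2.10 ± 0.48 (SE, adjusted p = 0.0275). Cyp3a25 and Cyp3a13 had log2 fold changes of 0.85 and 0.33 and did not pass (adjusted p = 0.0715 and 0.231). Summed Cyp3a levels were 3485 ± 556 CPM (responders, SD, n = 6) against 1542 ± 794 (non-responders, SD, n = 4).

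All 8 Cyp2d members, relatives of the human drug enzyme CYP2D6, had log2 fold changes above 0, from 0.12 to 1.27, and none of them passed. Cyp2d9, the male-predominant steroid 16α-hydroxylase, had the highest of these values and lay between 534 and 820.2 CPM in responders (median 584) and at 88.8, 87.2, 463 and 403 CPM in non-responders 1 to 4. Its groups did not overlap, and non-responders 1 and 2 were the low ones (1.27 ± 0.46 SE, adjusted p = 0.0987). Cyp2d10 and Cyp2d26 had the values 0.17 and 0.12, which turned to -0.0037 and -0.29 with the title number as covariate. Cyp2d genes share words with one another (40.5% for Cyp2d10), and the summed level was 1792 ± 247 CPM (responders, SD, n = 6) against 1243 ± 205 (non-responders, SD, n = 4), without overlap.

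**Figure D4:**
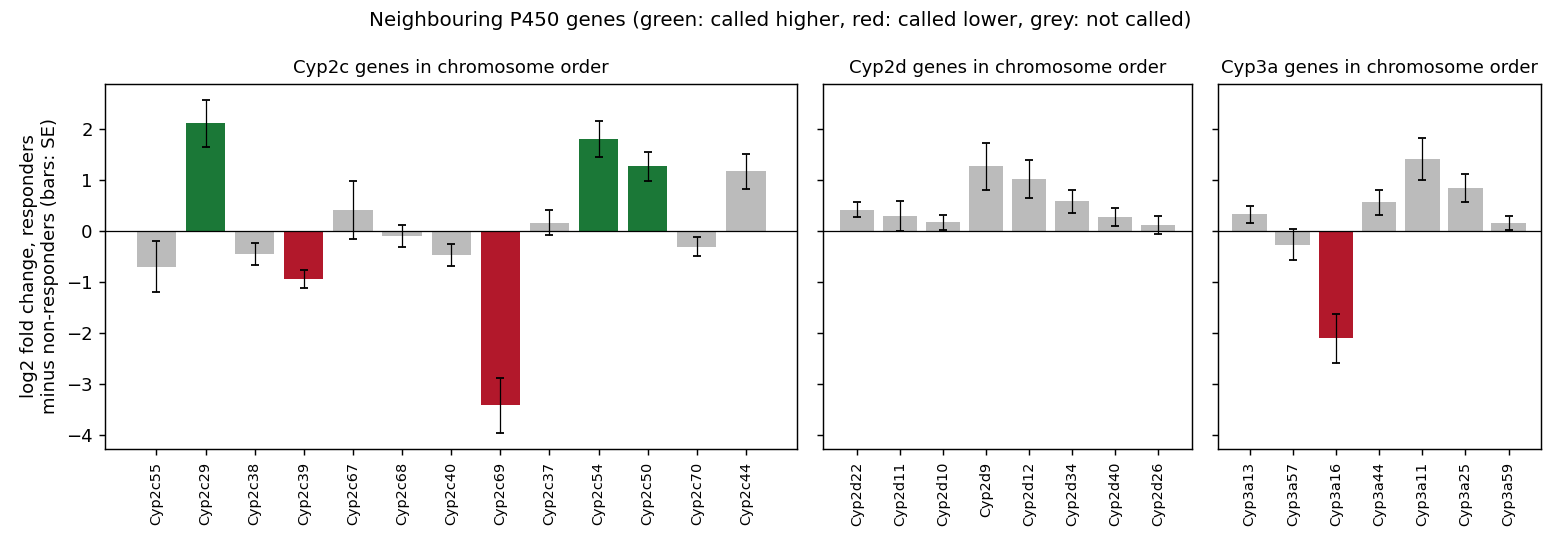
Log2 fold change (responders minus non-responders) with its SE for the tested Cyp2c, Cyp2d and Cyp3a genes in their order along the chromosome, in green where called higher, in red where called lower and in grey where not called. Cyp2c29 at 2.11 and Cyp2c69 at -3.42 belong to 1 cluster, while all Cyp2d bars are above 0.

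The Cyp2a and Cyp2b genes of chromosome 7 include close pairs, and the 300-base promoters of 2 pairs are shown because the members of each are nearly the same in sequence there, while 1 gene of the first pair passed the test and the other did not. The windows run from 250 bases before to 50 bases after the start in RefSeq (GRCm38.p6), 5′ to 3′, with TATAAA in capitals (in the Cyp2a pair; the Cyp2b pair holds none of the motifs searched). They are Cyp2a4 (chr7:26306942-26307241, plus strand), Cyp2a5 (chr7:26835089-26835388, plus strand), Cyp2b9 (chr7:26173159-26173458, plus strand) and Cyp2b13 (chr7:26061245-26061544, plus strand).
Cyp2a4: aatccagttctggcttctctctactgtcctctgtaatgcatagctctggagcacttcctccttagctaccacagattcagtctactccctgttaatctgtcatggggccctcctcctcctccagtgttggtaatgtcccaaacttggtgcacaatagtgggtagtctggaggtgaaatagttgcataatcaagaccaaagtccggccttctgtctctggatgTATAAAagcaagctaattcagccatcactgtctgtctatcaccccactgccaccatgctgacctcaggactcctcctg
Cyp2a5: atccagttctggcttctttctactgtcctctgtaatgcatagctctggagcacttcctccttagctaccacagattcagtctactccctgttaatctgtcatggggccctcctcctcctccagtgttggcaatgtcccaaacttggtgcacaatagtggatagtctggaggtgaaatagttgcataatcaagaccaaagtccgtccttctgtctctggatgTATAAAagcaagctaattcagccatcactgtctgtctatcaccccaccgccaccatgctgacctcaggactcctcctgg
Cyp2b9: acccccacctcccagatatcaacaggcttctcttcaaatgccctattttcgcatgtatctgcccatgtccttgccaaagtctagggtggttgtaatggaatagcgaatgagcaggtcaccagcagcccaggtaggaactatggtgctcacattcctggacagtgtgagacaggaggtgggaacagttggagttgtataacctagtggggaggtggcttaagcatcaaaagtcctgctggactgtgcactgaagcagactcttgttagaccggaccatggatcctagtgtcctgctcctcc
Cyp2b13: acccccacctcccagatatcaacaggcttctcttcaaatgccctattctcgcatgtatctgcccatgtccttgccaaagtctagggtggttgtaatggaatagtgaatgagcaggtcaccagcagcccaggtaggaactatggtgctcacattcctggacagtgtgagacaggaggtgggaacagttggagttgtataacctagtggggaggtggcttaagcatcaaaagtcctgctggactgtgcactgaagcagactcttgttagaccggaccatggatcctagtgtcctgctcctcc

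The Cyp2a4 and Cyp2a5 windows match at 294 of 299 aligned bases, and those of Cyp2b9 and Cyp2b13 at 298 of 300. Cyp2a4, a female-predominant testosterone 15α-hydroxylase (mm10 chromosome 7, 26307190 to 26315088), stood at 5.89, 7.22, 11.02, 21.6, 5.96 and 26.1 CPM in responders 1 to 6 and at 73.5, 78.02, 81.5 and 49.04 CPM in non-responders 1 to 4. All responders were below all non-responders, responders 4 and 6 came closest, and the log2 fold change was -2.45 ± 0.43 (SE, adjusted p = 0.0160). Cyp2a5, the coumarin 7-hydroxylase, lay between 87.9 and 223 CPM in responders (median 150.1) and at 114, 73.3, 533 and 265 CPM in non-responders 1 to 4. It did not pass (-0.64 ± 0.47 SE, adjusted p = 0.410), with its highest value in non-responder 3, and the difference between both genes was not tested. Transcripts of this pair are 98.3% identical and 36.1% of the 50-base words of Cyp2a4 occur in Cyp2a5, so each gene's share of the reads is uncertain. Cyp2a12, a bile acid and steroid 7α-hydroxylase, rose, between 155 and 295 CPM in responders (median 240.0) and 112, 100.2, 195 and 139 CPM in non-responders 1 to 4, with a log2 fold change of 0.80 ± 0.22 (SE, adjusted p = 0.0436). Its groups overlapped through responder 4, and the call held in 2 of the 10 leave-one-out fits.

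Cyp2b9 and Cyp2b13, female-predominant genes of the phenobarbital-inducible subfamily, split the responders. Cyp2b9 stood at 0.282, 2.94, 7.26, 78.95, 11.1 and 83.5 CPM in responders 1 to 6 and at 145, 127, 132 and 85.2 CPM in non-responders 1 to 4. Responders 4 and 6 were close to the non-responders and the other responders far below, so the spread was wide and the log2 fold change of -2.004 ± 1.07 (SE, adjusted p = 0.261) did not pass although the groups did not overlap. Cyp2b13 was also high in these 2 responders, 0.121, 0.236, 0.286, 16.6, 0.677 and 18.4 CPM in responders 1 to 6 and 19.5, 13.1, 41.3 and 23.6 CPM in non-responders 1 to 4, with a log2 fold change of -2.02 ± 1.21 (SE, adjusted p = 0.312). In the untreated library they stood at 0.370 and 0.0616 CPM. Responders 4 and 6 are also the responders with high fetal and tumour hepatocyte genes: Afp, the fetal serum protein, stood at 1.73, 1.38, 2.29, 121, 2.14 and 99.8 CPM in responders 1 to 6 and at 115, 288, 198 and 382 CPM in non-responders 1 to 4, and the part of those cells in the Cyp2b values was not tested. Cyp2b10, the CAR target of the same subfamily, had 1.49 ± 1.37 CPM (responders, SD, n = 6) against 0.468 ± 0.274 (non-responders, SD, n = 4), and its log2 fold change of 1.67 ± 0.69 (SE, adjusted p = 0.144) did not pass.

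Members known as female-predominant in mouse liver were lower or did not pass, and those known as male-predominant were higher or did not pass, in livers that all carried Y-linked transcripts. Of 11 listed female-predominant members, 4 were lower (Cyp17a1, Cyp2a4, Cyp2c69 and Cyp3a16), 0 were higher and 7 did not pass, with a median log2 fold change of -2.004. Log2 fold changes were above 0 for 4 of the 11, Cyp2b10 (1.67), Cyp3a44 (0.56), Cyp4a10 (1.18) and Cyp4a14 (2.27), and below 0 for 7. Cyp4a10 and Cyp4a14 are also PPARα targets. Of 4 male-predominant members, Cyp2j5 was higher and Cyp2d9, Cyp7b1 and Cyp2u1 did not pass, with a median of 1.61. Cyp2j5, an arachidonic acid epoxygenase, lay between 358 and 846 CPM in responders (median 684) and at 48.01, 71.9, 289 and 280.3 CPM in non-responders 1 to 4. The groups did not overlap and the log2 fold change was 1.85 ± 0.51 (SE, adjusted p = 0.0435). Cyp2u1, a fatty acid hydroxylase, lay between 32.3 and 73.6 CPM in responders (median 46.3) and at 1.27, 2.23, 17.6 and 18.7 CPM in non-responders 1 to 4, with a log2 fold change of 2.33 ± 0.69 (SE, adjusted p = 0.0573). A transcript named 4930534D22Rik holds 11.5% of its 50-base words, so its reads can be shared. The male-predominant Cyp4a12a, which is no member by its symbol, had 1.42 and 7.82 CPM in non-responders 1 and 2, 84.7 and 76.6 in non-responders 3 and 4, and 85.96 to 189 in responders. Cux2, a female-predominant repressor of male genes, was likewise high in non-responders 1 and 2 (56.5 and 32.3 CPM, against 2.62 and 1.53 in the others) and did not pass (adjusted p = 0.0672). Ghr, the growth hormone receptor, did not overlap between groups, between 483 and 745 CPM in responders (median 656) and 136, 108, 465 and 418 CPM in non-responders 1 to 4, and its log2 fold change of 1.17 ± 0.38 (SE, adjusted p = 0.0750) did not pass. Bcl6 and Stat5b, regulators that act downstream of growth hormone, had log2 fold changes of 0.20 and 0.19 and did not pass (adjusted p = 0.807 and 0.473). These 4 genes were taken from the list of regulators with their values seen.

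**Figure D5:**
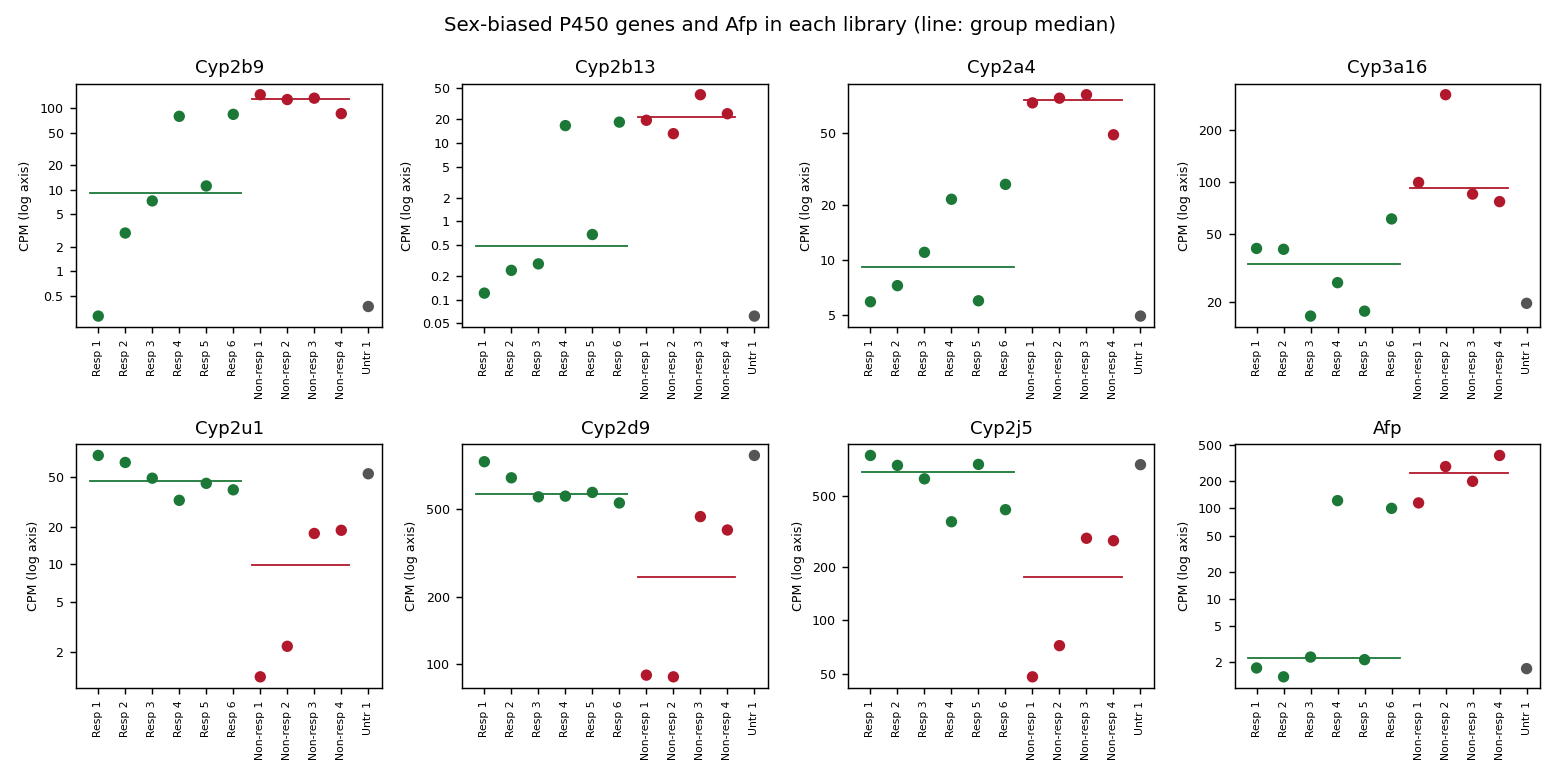
CPM on a log axis of 4 of the 11 female-predominant genes, all with log2 fold changes below 0 (Cyp2b9, Cyp2b13, Cyp2a4 and Cyp3a16), 3 male-predominant genes (Cyp2u1, Cyp2d9 and Cyp2j5) and Afp in each library (green: responders, red: non-responders, grey: untreated, lines: group medians). Responders 4 and 6 lie near the non-responders for Cyp2b9, Cyp2b13 and Afp, and non-responders 1 and 2 are lowest for the male-predominant genes.

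Cyp2s1 and the CYP4 hydroxylases showed changes in both directions. Cyp2s1, an extrahepatic form that acts on eicosanoids, was near the floor in responders, with 14 reads over all 6 and 174 over the 4 non-responders. It stood at 0.161, 0, 0.0476, 0.107, 0.0542 and 0.0992 CPM in responders 1 to 6 and at 0.291, 0.299, 2.11 and 1.83 CPM in non-responders 1 to 4. Non-responders 3 and 4 were the high libraries, and the log2 fold change was -3.88 ± 0.72 (SE, adjusted p = 0.0167). Cyp4f16, a relative of the leukotriene B4 hydroxylases, was lower in responders, between 1.65 and 4.44 CPM in responders (median 2.49) and 10.5, 12.1, 7.55 and 6.53 CPM in non-responders 1 to 4. Its groups did not overlap, with a log2 fold change of -1.69 ± 0.32 (SE, adjusted p = 0.0177), and 24.8% of its 50-base words occur in Cyp4f37. The other 6 tested Cyp4f genes did not pass, among them the leukotriene hydroxylase Cyp4f14 (0.73 ± 0.31 SE, adjusted p = 0.158).

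In the Cyp4a subfamily of fatty acid ω-hydroxylases, 1 of 4 tested genes was higher. Cyp4a32 lay between 16.3 and 29.5 CPM in responders (median 22.7) and at 10.5, 6.11, 9.42 and 11.1 CPM in non-responders 1 to 4, with a log2 fold change of 1.27 ± 0.21 (SE, adjusted p = 0.0149). Every responder was above every non-responder. Cyp4a10 and Cyp4a14, the PPARα targets induced by fasting and fibrates, were high in 2 responders only. Cyp4a14 stood at 1.89, 6.08, 13.8, 25.2, 104 and 128 CPM in responders 1 to 6 and at 18.99, 12.2, 3.03 and 4.48 CPM in non-responders 1 to 4, and Cyp4a10 at 111 and 127 CPM in responders 5 and 6 and between 11.1 and 44.8 in the other treated libraries. Neither passed (2.27 and 1.18; adjusted p = 0.226 and 0.377). Cyp4a32 shares 34.8% of its 50-base words with Cyp4a10 and stood at 23.7 and 26.2 CPM in responders 5 and 6, and the part of shared reads in its values was not tested. Cyp4v3, a medium-chain hydroxylase of broad tissue range, did not overlap between groups, between 594 and 1087 CPM in responders (median 809.7) and 154, 310.2, 556 and 587 CPM in non-responders 1 to 4, and its log2 fold change of 1.03 ± 0.34 (SE, adjusted p = 0.0755) did not pass.

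Fdx1, Pgrmc2, Abcb6, Nr1h4 and Cebpa were higher and Cyb5r1 lower among the other genes of the P450 system. Of 56 genes listed as redox partners, haem enzymes, nuclear receptors and hepatocyte regulators, all tested, 5 were higher, 1 was lower and 50 did not pass, beside 4.11% higher and 5.82% lower over all genes tested. Their median log2 fold change was -0.01. Por, the reductase that feeds electrons to the microsomal enzymes, did not pass (-0.26 ± 0.20 SE, adjusted p = 0.418). Fdx1, the ferredoxin of the mitochondrial enzymes such as CYP27A1, was higher in responders (0.69 ± 0.17 SE, adjusted p = 0.0325), as was Pgrmc2, a haem chaperone (0.48 ± 0.11 SE, adjusted p = 0.0241), while Cyb5r1, a cytochrome b5 reductase, was lower (-0.68 ± 0.15 SE, adjusted p = 0.0229). Alas1, the first enzyme of haem synthesis, had a log2 fold change of 0.52 ± 0.36 (SE, adjusted p = 0.391) and ranged from 87.4 CPM in non-responder 2 to 519 in responder 4. Abcb6, a porphyrin transporter, rose (0.71 ± 0.17 SE, adjusted p = 0.0275). The receptors Nr1i2 (PXR), Nr1i3 (CAR), Ahr and Ppara had log2 fold changes of -0.25, -0.12, -0.48 and 0.53 and did not pass (adjusted p = 0.407, 0.782, 0.112 and 0.227). Cebpa, a hepatocyte transcription factor, was higher (0.95 ± 0.27 SE, adjusted p = 0.0470), with its highest value in responder 1, and Hnf4a did not pass (-0.08, adjusted p = 0.719). In the fits without responder 1, responder 2, responder 5 or non-responder 2, none of these 6 calls held.

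The promoters of the members were searched for short motifs on both strands, and those of Cyp3a11, Cyp3a16 and Cyp2c69 are shown because they hold the letters CAAAGTCCA, a core bound by the hepatocyte factor HNF4A. An entry of RefSeq was found for 73 members, of which 9 (12.3%) held CAAAGTCCA, against 0.477% of 27025 promoters of the same length. They were Cyp2c40, Cyp2c65, Cyp2c67, Cyp2c68, Cyp2c69, Cyp2c70, Cyp3a11, Cyp3a16 and Cyp8b1, so that 2 of the 6 lower members with an entry and 0 of the 8 higher ones held it. Near copies within Cyp2c and Cyp3a are not independent. For the 7 members with more than 1 entry, only the first entry was counted. Cyp2c39 is 1 of them, and its second entry, at the start of the gene, holds TATAAA, which its first lacks. TATAAA was present in 39.7% of the members and 14.2% of all promoters, the STAT5 letters TTCNNNGAA in 6.85% and 8.47%, and the TCF/LEF core CTTTGA in 21.9% and 16.2%. Where a T precedes CAAAGTCCA, the same letters also hold CTTTGA on the other strand. The HNF1 letters GTTAAT were in 10.96% and 7.20%, the AHR core GCGTG in 21.9% and 32.5%, and the D-box TTATGTAA in 0 members and 0.955% of all promoters. In the windows of Cyp3a11 (chr5:145879805-145880104, minus strand), Cyp3a16 (chr5:145469674-145469973, minus strand) and Cyp2c69 (chr19:39886720-39887019, minus strand), capitals mark CAAAGTCCA and TATAAA.
Cyp3a11: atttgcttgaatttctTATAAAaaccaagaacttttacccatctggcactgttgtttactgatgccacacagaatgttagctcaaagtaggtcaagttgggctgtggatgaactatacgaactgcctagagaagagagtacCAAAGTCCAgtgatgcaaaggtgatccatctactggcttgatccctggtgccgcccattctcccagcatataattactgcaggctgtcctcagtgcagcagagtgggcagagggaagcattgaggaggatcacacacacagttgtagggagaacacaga
Cyp3a16: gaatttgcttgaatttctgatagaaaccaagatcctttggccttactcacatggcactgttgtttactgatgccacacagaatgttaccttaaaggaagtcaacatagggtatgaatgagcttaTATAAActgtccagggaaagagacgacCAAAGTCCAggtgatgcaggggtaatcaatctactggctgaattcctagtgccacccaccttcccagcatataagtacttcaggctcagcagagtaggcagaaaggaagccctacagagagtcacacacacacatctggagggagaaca
Cyp2c69: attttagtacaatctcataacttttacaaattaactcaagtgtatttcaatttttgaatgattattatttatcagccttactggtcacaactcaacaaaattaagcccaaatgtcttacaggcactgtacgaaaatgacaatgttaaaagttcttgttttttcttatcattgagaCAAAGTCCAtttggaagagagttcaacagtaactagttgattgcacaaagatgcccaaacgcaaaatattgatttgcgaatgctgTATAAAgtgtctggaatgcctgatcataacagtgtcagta

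The Cyp3a11 and Cyp3a16 windows are 82.2% identical over their aligned bases and both hold the motif, although Cyp3a16 was lower in responders and Cyp3a11 was above 0 without passing. A match is a run of letters, not a measured binding site.

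The untreated library is a single library, so its values have no test. Of the 76 tested members it lay within the range of the 10 treated libraries for 60, above it for 10 and below it for 6 on log2(CPM + 0.5); over all genes tested it lay above for 8.50% and below for 7.75%. Cyp7b1 was farthest above, at 690.2 CPM against at most 456 in a treated library, followed by Cyp26c1 and Cyp3a25 (3.80 and 455 CPM). Cyp2g1, an olfactory steroid hydroxylase, was farthest below (0.370 CPM against 0.645 or more), with Cyp2a4 and Cyp4f16 next (4.91 and 1.44 CPM). Cyp2b13 and Cyp1a1 were also below every treated library.

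The 17 members that were not tested had at most 40 reads over the 10 treated libraries. They include the adrenal and gonadal enzymes Cyp11a1, Cyp11b1, Cyp11b2 and Cyp19a1, the renal vitamin D 1α-hydroxylase Cyp27b1, and tissue-specific forms such as Cyp2w1, which had a single read in all. Cyp19a1, the aromatase, had its 14 reads in non-responder 1 only, all on 1 of its 9 exons.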

How the data were processed

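Liver RNA was taken up in TRIzol and made into TruSeq libraries with indexes from a small RNA kit, per the labels' protocols. FastQC and mm10 are named in the submitters' processing notes. For the aligner, counter, annotation release and strandedness, the sources used here give nothing. The authors deposited a raw count per gene, a raw count per exon and an RPKM value per gene, per the file headers. RPKM served only to rank levels between genes, and exon counts only for coverage along transcripts. The members, lists and tests were chosen with earlier results of these data known.

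Responders (6) and non-responders (4) were compared on the gene counts of the whole table by a robust quasi-likelihood F test (edgeR 4.0.16, R 4.3.3) after filterByExpr and TMM, with Benjamini-Hochberg adjustment over all 17610 genes tested, threshold 0.05. Each SE is the absolute log2 fold change over the square root of its F value. Displayed CPM use TMM factors over all 11 libraries. Sums over members have no test. The edgeR step was tested on simulated data. Alternatives were RLE, upper quartile and library-size scaling, other filters, limma-voom (limma 3.58.1), DESeq2 1.42.0, a covariate for title number, a group for the untreated library, and leaving out each library. Members named are those called, the 12 of highest mean CPM, a fixed set, those farthest outside the treated range in the untreated library and those with an outlying library; names outside these, such as Cyp2c44, Cyp2c40, Cyp2u1, Cyp4f14, Cyp21a1 and Cyp1b1, were chosen after their values were seen. Words of 50 bases of each member's longest GENCODE M21 transcript (92 members matched) were searched in all other transcripts on both strands, and transcripts and RefSeq promoters were aligned with Biopython 1.88.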

Additional observations from a re-analysis of the deposited data

Results flagged for a closer look

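Within a group of 4 or 6 libraries, a single library stood far from the rest for 9 tested P450 values. These came from 152 group comparisons of 76 genes, where chance marks about 5%, so the count is near the rate of chance. In non-responder 2, Cyp3a16 stood at 318 CPM, Cyp39a1 at 208 CPM and Cyp3a57 at 3.42 CPM, each well above the other non-responders. In non-responder 1, Cyp26b1 was low at 1.53 CPM and Cyp3a59 at 28.7 CPM. In responder 4, Cyp3a13 was low at 22.0 CPM, while Cyp2c55 and Cyp17a1 were high at 5.35 and 0.963 CPM. In responder 6, Cyp2d11 was low at 4.19 CPM.

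Cyp3a41b, which the symbol rule leaves out, stood at 55.5 CPM in responder 5 and at 0.161 CPM or less in the other responders. Of its 2288 exon reads there, 69.1% fell on 1 of 13 exons, and 5 exons had reads. Its near copy Cyp3a41a, which holds 93.5% of its 50-base words, stood at 5.61 CPM in that library.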

How the results depend on the processing

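No paired analysis was possible because replicate numbers follow accession order and the title numbers are not shared between groups. The counts of 9 higher and 7 lower members stayed within 1.5 times under RLE, upper quartile and library-size scaling, both other filters and the untreated library as a group. More passed by DESeq2 (26 members higher, and 1396 of all genes tested) and by limma-voom (16 and 902). The main fit called 723 of all genes tested higher at the threshold of 0.05. With a threshold of 0.10, 23 members were higher. No count over all genes at 0.10 is given here to set beside it. At 0.01, and with the title number as a covariate, 0 members were higher and 0 lower. With that covariate 14 members had an unadjusted edgeR p under 0.05, 7 of them higher, beside 1857 of all 17610 genes. By adjusted p, 0 of all genes were higher and 1 lower. Fits without 1 library each gave 1 to 12 members higher and 2 to 9 lower. Over all genes they gave 38 to 836 higher and 41 to 1158 lower. The median of the tested members ranged from 0.23 to 0.41 over these fits. Among the 56 other genes of the P450 system, DESeq2 called 9 higher and 4 lower, beside 1396 and 1661 of all 17610 genes tested. A threshold of 0.10 gave 5 lower, again with no count over all genes. Upper quartile scaling and the filter on CPM over 1 gave 2 lower, beside 1036 and 1009 over all genes. The threshold of 0.01 and the title covariate gave 0 and 0. Fits without 1 library gave 0 to 8 of the 56 higher and 0 to 3 lower. Mean P450 shares were 2.01% in responders and 1.27% in non-responders, and without Cyp2e1 1.34% and 0.770%.

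Among the members named by the rules above, directions of 6 that were not called turned. Cyp1a2 was at 0.42 by limma-voom and 0.36 with the title covariate, and ran from -0.34 (without non-responder 2) to 0.35 (without non-responder 4) over the fits that left out a library; it was also above 0 without responders 3, 5 or 6 (0.0238, 0.0136 and 0.0126) or non-responder 3 (0.30). Cyp2a5 was at 0.0108 with the title covariate and ran from -0.94 (without non-responder 2) to 0.0637 (without non-responder 3). With the title covariate Cyp2b13 was at 0.62, Cyp2b9 at 0.25, Cyp2d26 at -0.29 and Cyp2d10 at -0.0037. The cause was not tested. Members with few reads, such as Cyp2s1, are limited by depth.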
